A study of Homo sapiens with 15 samples.

Results

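The tumour suppressor p53 is a transcription factor that stops the cell cycle, starts DNA repair or starts cell death after stress. It also switches on its own inhibitors: MDM2 and its relative MDM4 bind p53 and block it, MDM2 as the ubiquitin ligase that sends p53 to the proteasome, and PPM1D, the phosphatase Wip1, removes activating phosphates from p53 and its kinases. Other p53 targets act in arrest and repair, among them CCNG1, the polo-like kinases PLK2 and PLK3, the growth-arrest proteins GADD45A and BTG2, the ribonucleotide reductase subunit RRM2B and the stress protein TP53INP1. These 10 genes were followed in IMR32, an established human neuroblastoma line with amplified MYCN, as CDK2 was depleted. The genes were chosen by name, with earlier results of these data known. Every probe set whose annotation gave 1 of them as its single symbol was taken. That found 28 of the 54675 probe sets on the array and 9 of the 10 genes, out of 19775 genes named by such probe sets. No probe set was assigned to BTG2 in the annotation used, so BTG2 was not analysed here.

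The cells were 1 clone of IMR32 carrying the tetracycline repressor and a short hairpin RNA (shRNA) against CDK2, under control of that repressor. Doxycycline at 100 ng/ml started the hairpin, and total RNA was hybridised to Affymetrix U133 Plus 2.0 arrays in triplicate at 0, 8, 24, 48 and 72 h, 15 arrays in all. All groups carried the hairpin construct, and the 0 h cells differed in not yet having received doxycycline. The unit of time is missing from the labels and was read as hours. Cells kept without doxycycline, or given another hairpin, are not among the groups, so the effects of knockdown, doxycycline and time in culture cannot be told apart. Nothing states that the 3 arrays of a time were separate cultures, and the p-values therefore measure the spread between arrays, which may be technical.

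The hairpin's target fell at every later time. CDK2 read 30.0, 40.0 and 20.2 MAS5 signal units at 72 h, against 245.5, 236.0 and 213.7 at 0 h, and its log2 changes were -1.16, -1.36, -1.94 and -2.45 at 8, 24, 48 and 72 h. Median signal per array lay between 15.1 and 20.5. Its mean over the 3 arrays rose with time and was 16.3, 16.7, 17.6, 18.5 and 18.9 at 0, 8, 24, 48 and 72 h. The ratio of 3′ to 5′ control probes lay between 0.974 and 1.07 for GAPDH and between 1.10 and 1.35 for ACTB. Of the noradrenergic neuroblastoma markers, 7 of the 9 with a probe set passed the brightness filter. GATA3 ranged from 3080.2 to 4205.2 and MYCN from 4076.0 to 6128.4 over the arrays, while TH (0.5 to 9.5) and STMN2 (1.3 to 46.9) did not pass the filter. Of the immune markers, 0 of 3 passed it, and of the endothelial and epithelial markers 1 of 4 each, PECAM1 and KRT8, with at most 33.1 and 28.2. Of the 6 fibroblast markers COL1A1, LUM and PDGFRA passed it. LUM averaged 346.3 at 72 h and 13.7 at 0 h, COL1A1 300.9 and 289.3, and PDGFRA 679.2 and 838.5, a fall. Of the 5 mesenchymal or Schwann cell markers VIM alone passed it. The summed level of the fibroblast list was 1362.4 at 72 h and 1170.4 at 0 h, and that of the mesenchymal list was 3094.9 at 72 h and 4009.1 at 0 h. Their part in the results below was not tested. In such bulk RNA, fewer cells of a type and less RNA per cell cannot be told apart.

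Since these genes are grouped as p53 targets, the 250 bases before their annotated starts (RefSeq, GRCh38.p14) were set beside the p53 consensus, a pair of adjoining half-sites of 20 bases in all. The consensus reads the same on both strands. The best window before the start is shown for the measured genes that the promoter table holds, with capitals where the base fits the consensus and lower case where it does not.
MDM2 inner start: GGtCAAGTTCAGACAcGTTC
MDM2 outer start: GAGgTgGTgCGGcCgAGCCC
PPM1D: AAGCAAaCTaGGAgATGCgC
MDM4: tcACAAGaCCctGCAAGTCC
PLK2: tGGCggGaCaAGACTTGCTT
CCNG1: GGGgAAtTTgAGGCcAGaTa
PLK3: cGGCcTGgTTGcACcTGCaT
The window before the inner MDM2 start, at chr12:68808923-68808942 on the plus strand, fitted at 18 of 20 positions, and 0.561% of the 35116 promoters in the table had a window with at most 2 mismatches. That stretch lies where the inner, p53-responsive promoter of MDM2 has long been known, and its surroundings are given because MDM2 is the core of the feedback loop. Only the best window is marked, and further partial matches in these bases are not listed. The 250 bases before that start (chr12:68808767-68809016, window in capitals) read
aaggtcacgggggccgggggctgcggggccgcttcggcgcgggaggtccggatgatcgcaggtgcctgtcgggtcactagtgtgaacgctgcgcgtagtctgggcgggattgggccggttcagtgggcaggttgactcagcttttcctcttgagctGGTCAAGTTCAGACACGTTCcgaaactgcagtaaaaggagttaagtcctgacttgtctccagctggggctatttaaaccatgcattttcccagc
The window before the outer MDM2 start lies at chr12:68808063-68808082, that of MDM4 at chr1:204516186-204516205, that of CCNG1 at chr5:163437409-163437428 and that of PLK3 at chr1:44800140-44800159, all on the plus strand. That of PLK2 lies at chr5:58460209-58460228 on the minus strand.
The best PPM1D window (chr17:60599994-60600013, plus strand) had 4 mismatches, as few as 22.1% of all promoters. Windows with at most 5 mismatches, as before the outer MDM2 start and those of MDM4 and PLK2, were found in 64.5% of promoters, and windows with at most 6, as for CCNG1 and PLK3, in 95.7%. These matches describe letters in a short stretch only. GADD45A, RRM2B and TP53INP1 were not searched.

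After doxycycline the measured genes of this group rose from 24 h on. None passed the test at 8 h, 6 of 9 rose at 24 h, and 9 of 9 rose at 48 h and at 72 h. Signals were taken as log2(signal + 16) and compared with limma over 11774 genes, with 3 arrays per time and adjusted p under 0.05 (Benjamini-Hochberg) as the threshold. Each gene was represented by its brightest probe set. The share of all tested genes that rose was 0.0934% at 8 h, 7.74% at 24 h, 26.3% after 48 h and 32.8% by 72 h. The median change of the 9 genes was 0.09, 0.47, 0.66 and 0.72 on the log2 scale at these times, and that of all genes was 0.02, 0.05, 0.08 and 0.10. At 8 h limma called 0 of the 9, and 1 of them, MDM4, had an unadjusted p under 0.05. All 9 passed limma's F test over the time course, as 57% of all genes did. A log2 change of 1 or more among the calls was reached by 0 of the 9 at 24 h (0.195% of all genes), 3 at 48 h (2.37%) and 4 at 72 h (5.34%).

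The largest rise was that of RRM2B at 5.16-fold on the log2(signal + 16) scale at 72 h, followed by PLK2 (3.96-fold), TP53INP1 (3.13-fold) and MDM2 (2.16-fold). PPM1D, GADD45A, PLK3, MDM4 and CCNG1 lay between 1.65-fold and 1.31-fold. The pseudocount of 16 compresses the fold of a dim gene, and PLK3 was the dimmest of the group. Its 72 h log2 change of 0.67 became 0.93 with a pseudocount of 1 and 0.36 with 64. With a pseudocount of 1 it lay above PPM1D (0.73) and GADD45A (0.71), so its place in this order is not settled. The 3 arrays at 72 h lay above the 3 at 0 h for all 9 genes, as they did for 36.3% of all genes. At 48 h this held for 9 genes (34.1% of all genes), at 24 h for 8 (20.5%) and at 8 h for MDM4 alone (10.3%).

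**Figure D1:**
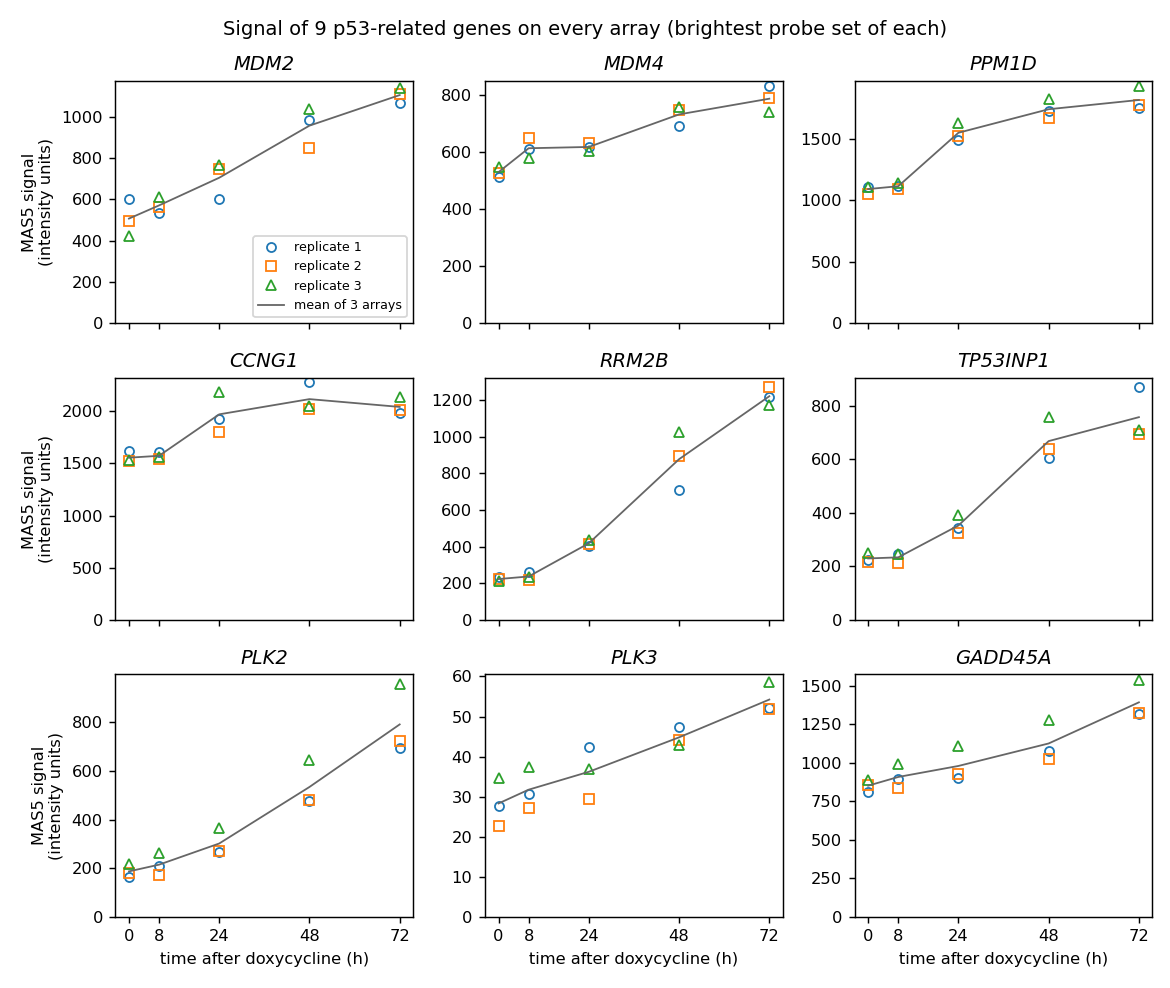
MAS5 signal (vertical axes, intensity units, from 0) of the brightest probe set of each gene against time after doxycycline in hours, with 1 symbol per array and a line through the means of 3 arrays. The 72 h arrays lie above the 0 h arrays in all 9 panels, and replicate 3 is the highest at every time for PPM1D, PLK2 and GADD45A.

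Of the feedback regulators, MDM2 read 600.9, 497.4 and 423.9 at 0 h, 536.2, 565.4 and 611.9 at 8 h and 602.7, 745.7 and 767.1 at 24 h. It read 984.5, 848.6 and 1039.2 at 48 h and 1069.0, 1109.7 and 1137.8 at 72 h. Every array from 24 h on was above the highest 0 h array, at 24 h by as little as 602.7 against 600.9. The log2 change was 0.47 ± 0.11 (SE) at 24 h, 0.90 ± 0.11 at 48 h and 1.11 ± 0.11 at 72 h (limma, adjusted p = 0.011, 5.2e-06 and 2.1e-07). The 24 h call was lost without the third 24 h array (0.41, adjusted p = 0.056) and without the third 0 h array (0.35, adjusted p = 0.068).

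MDM2 was covered by 10 probe sets, of which 8 passed the brightness filter. When all 27307 probe sets past the filter were tested singly, 0 of these 8 were called higher at 8 h (0 also at an unadjusted p under 0.05), 4 at 24 h, 5 at 48 h and 6 at 72 h. Of all probe sets, 0.0293% were higher at 8 h and 4.68%, 20.8% and 27.1% at the later times. At 72 h the 6 called ran from 0.57 to 1.59. The probe set 237891_at, called at 24, 48 and 72 h, averaged 8.5 at 0 h and 8.0 at 8 h, below the filter's signal of about 16.6. Its later arrays (means 20.8, 25.1 and 30.4) took it past the filter, so its calls are not independent of the filter. The largest change was at 238733_at, which read 96.6, 93.5 and 128.4 at 72 h, against 25.2, 22.2 and 25.2 at 0 h. The probe sets 217373_x_at (1.24) and 225160_x_at (1.11) gave changes close to that of the brightest, 229711_s_at (1.11). By contrast 205386_s_at read 23.2, 31.6 and 28.7 at 72 h, against 25.8, 23.3 and 29.8 at 0 h, a change of 0.05 ± 0.18 (SE, adjusted p = 0.84). The remaining probe set that was not called, 244616_x_at, was at 0.57 (adjusted p = 0.10), with 72 h arrays of 75.2, 39.7 and 61.9. The 2 MDM2 probe sets below the filter stayed between 1.7 and 23.6 on all arrays. In Affymetrix names, the ending x_at marks probes that may also bind other sequences and s_at marks probes shared by several transcripts.

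MDM4, which blocks p53 without degrading it, gave probe sets that disagreed. Its brightest, 225740_x_at, read 513.8, 527.0 and 548.9 at 0 h, 610.3, 651.0 and 579.2 at 8 h and 619.6, 631.6 and 602.9 at 24 h. It read 689.8, 747.0 and 759.3 at 48 h and 833.0, 789.3 and 738.9 at 72 h. All later arrays lay above the 0 h arrays, and the change was 0.20 ± 0.07 (SE) at 8 h and 0.22 ± 0.07 at 24 h, neither of which passed the test (adjusted p = 0.33 and 0.053). By 48 h it had reached 0.45 ± 0.07 (adjusted p = 5.8e-05), and by 72 h it had reached 0.56 ± 0.07 (3.5e-06). A second probe set, 225742_at, was called higher at 48 h (0.58) and 72 h (0.43), where it read 245.8, 243.8 and 203.7, against 161.6, 162.8 and 176.6 at 0 h. The other 3 past the filter were not called at any time and were at 0.08, -0.13 and -0.10 at 72 h. One of these, 236814_at, read 558.2 ± 72.7 (SD, n = 3) at 72 h and 525.7 ± 35.2 at 0 h. With the mean of the gene's probe sets in place of the brightest, MDM4 was at 0.17 at 72 h (adjusted p = 0.15). The call for MDM4 therefore rests on 2 of 5 probe sets.

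**Figure D2:**
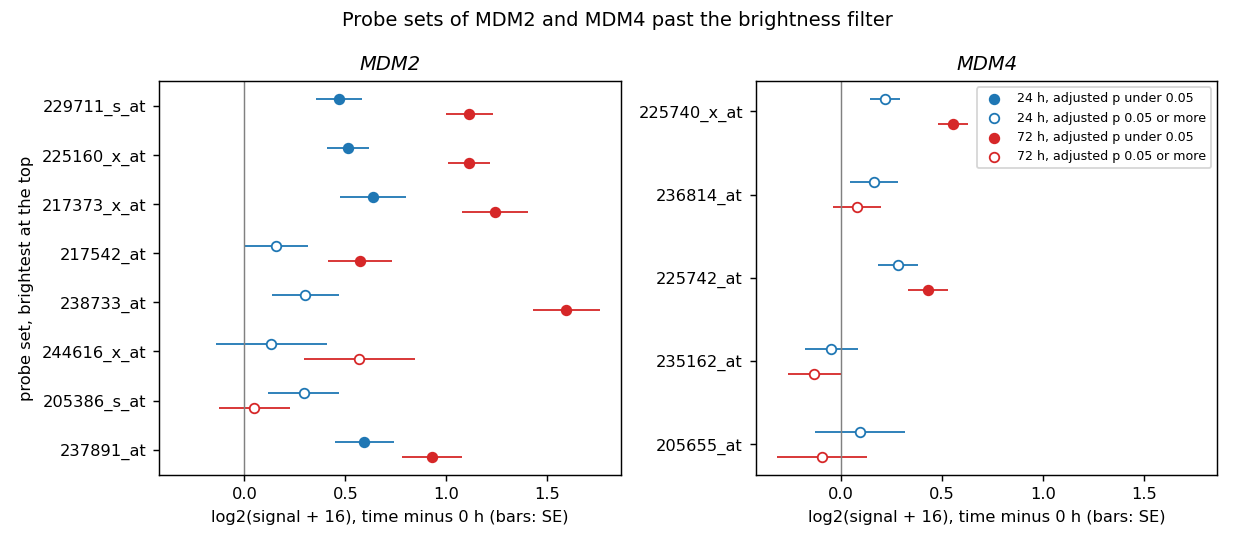
Log2 change from 0 h (horizontal axes, log2(signal + 16), bars SE) at 24 h and 72 h of each MDM2 and MDM4 probe set past the brightness filter, the brightest at the top. At 72 h 6 of 8 MDM2 and 2 of 5 MDM4 probe sets are filled, meaning an adjusted p under 0.05. The filter used all arrays, and 237891_at passed it through those from 24 h on.

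PPM1D and CCNG1 reached most of their 72 h change by 24 h. PPM1D read 1110.5, 1050.5 and 1111.1 at 0 h, 1115.2, 1089.5 and 1136.5 at 8 h and 1491.1, 1522.9 and 1629.7 at 24 h. It read 1727.6, 1666.3 and 1823.1 at 48 h and 1745.0, 1773.1 and 1924.3 at 72 h. The 0 h and 8 h arrays of PPM1D overlapped, and all later ones stood clear of them. Its change was 0.50 ± 0.07 (SE) at 24 h, 0.66 ± 0.07 at 48 h and 0.72 ± 0.07 at 72 h (adjusted p = 4.9e-05, 2.7e-07 and 4.1e-08), so 68.7% of the 72 h value was present at 24 h. The dimmer PPM1D probe set was called higher at the same times, by 0.36, 0.27 and 0.41.

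CCNG1 encodes cyclin G1, which recruits the phosphatase PP2A to MDM2. It read 1615.1, 1519.4 and 1528.8 at 0 h, 1606.9, 1545.2 and 1565.5 at 8 h and 1921.4, 1803.3 and 2183.4 at 24 h. It read 2281.6, 2018.4 and 2045.3 at 48 h and 1980.2, 2009.8 and 2131.4 at 72 h. The arrays of 24, 48 and 72 h overlapped each other and lay above those of 0 h. The change was 0.33 ± 0.07 (SE) at 24 h, 0.44 ± 0.07 at 48 h and 0.39 ± 0.07 at 72 h (adjusted p = 0.0058, 1.2e-04 and 2.4e-04), with 86.0% of the 72 h value at 24 h. The 24 h call was lost under median centring of the arrays (0.27, adjusted p = 0.054).

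Of the repair and stress genes, RRM2B supplies deoxynucleotides outside S phase. It read 233.6, 222.8 and 215.2 at 0 h, 262.3, 216.3 and 234.9 at 8 h and 401.9, 416.7 and 438.1 at 24 h. It read 710.9, 893.8 and 1028.2 at 48 h and 1218.9, 1269.3 and 1175.3 at 72 h. From 8 h on, no 2 times overlapped. The change was 0.86 ± 0.10 (SE) at 24 h, 1.88 ± 0.10 at 48 h and 2.37 ± 0.10 at 72 h (adjusted p = 2.5e-05, 3.9e-10 and 4.8e-12).

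TP53INP1 encodes a nuclear stress protein that promotes the phosphorylation of p53. It read 225.0, 216.1 and 249.1 at 0 h, 245.5, 212.0 and 244.8 at 8 h and 341.8, 326.2 and 391.2 at 24 h. It read 606.3, 639.4 and 758.3 at 48 h and 871.5, 692.7 and 707.9 at 72 h. The 48 h and 72 h arrays overlapped each other and lay above all earlier ones. Its change was 0.58 ± 0.11 (SE) at 24 h, 1.47 ± 0.11 at 48 h and 1.65 ± 0.11 at 72 h (adjusted p = 0.0013, 8.1e-09 and 5.2e-10). A second probe set, dim at 0 h (6.0, 7.5 and 14.6), was called higher at 48 h (1.19) and 72 h (0.89). It averaged 9.4 at 0 h and 2.7 at 8 h, below the filter's signal of about 16.6. Its arrays of 24, 48 and 72 h (means 18.4, 42.9 and 32.7) took it past the filter, so these calls are not independent of the filter. The remaining probe set stayed at or below 6.4.

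Of the arrest genes, PLK2 encodes a kinase of centriole duplication and of synapses. It read 165.4, 178.3 and 217.1 at 0 h, 211.1, 171.6 and 261.1 at 8 h and 266.2, 271.4 and 367.6 at 24 h. It read 476.8, 479.5 and 647.0 at 48 h and 694.3, 723.8 and 958.1 at 72 h. The third array was the highest at each time, and from 24 h on the times did not overlap. The change was 0.64 ± 0.16 (SE) at 24 h, 1.43 ± 0.16 at 48 h and 1.99 ± 0.16 at 72 h (adjusted p = 0.014, 1.7e-06 and 1.3e-08). The 24 h call was lost without the third 24 h array (0.50, adjusted p = 0.086), without the first 0 h array (0.56, 0.067) and without the second 0 h array (0.61, 0.051). Median centring of the arrays also lost it (0.58, 0.054).

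PLK3, a stress-responsive kinase of the same family, was dim. It read 27.6, 22.7 and 34.6 at 0 h, 30.6, 27.2 and 37.4 at 8 h and 42.3, 29.5 and 36.8 at 24 h. It read 47.3, 44.1 and 43.0 at 48 h and 52.2, 51.8 and 58.7 at 72 h. Only the 48 h and 72 h arrays cleared those of 0 h, with changes of 0.46 ± 0.14 (SE, adjusted p = 0.011) and 0.67 ± 0.14 (5.0e-04). The 48 h call was lost with quantile normalisation (0.33, adjusted p = 0.084), with median centring (0.37, 0.059) and without the second 0 h array (0.37, 0.064). The second PLK3 probe set past the filter was called higher at 48 h (0.68) and 72 h (0.77), but its arrays overlapped: 44.9, 18.1 and 40.2 at 72 h, against 3.5, 15.7 and 21.7 at 0 h. It averaged 13.6 at 0 h and 12.9 at 8 h, below the filter's signal of about 16.6. Its later arrays (means 30.3, 30.2 and 34.4) took it past the filter, so these calls are not independent of the filter.

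GADD45A, which binds PCNA and inhibits the mitotic kinase CDK1, had 27.8% of its 72 h change at 24 h, the smallest share without rescaling. It read 808.0, 854.9 and 889.3 at 0 h, 896.2, 834.0 and 991.6 at 8 h and 899.8, 927.5 and 1108.8 at 24 h. It read 1073.3, 1021.5 and 1279.2 at 48 h and 1317.1, 1321.5 and 1536.0 at 72 h. The 24 h arrays were above those of 0 h, but the change of 0.19 ± 0.10 (SE) did not pass the test (adjusted p = 0.22). It was called at 48 h (0.39 ± 0.10, 0.0039) and 72 h (0.70 ± 0.10, 1.1e-05). Median centring of the arrays lost the 48 h call (0.29, adjusted p = 0.068). With quantile normalisation the share at 24 h was smaller for PLK3 (0.14 at 24 h and 0.54 at 72 h) than for GADD45A (0.24 and 0.81). Which gene had the smallest share is therefore not settled.

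**Figure D3:**
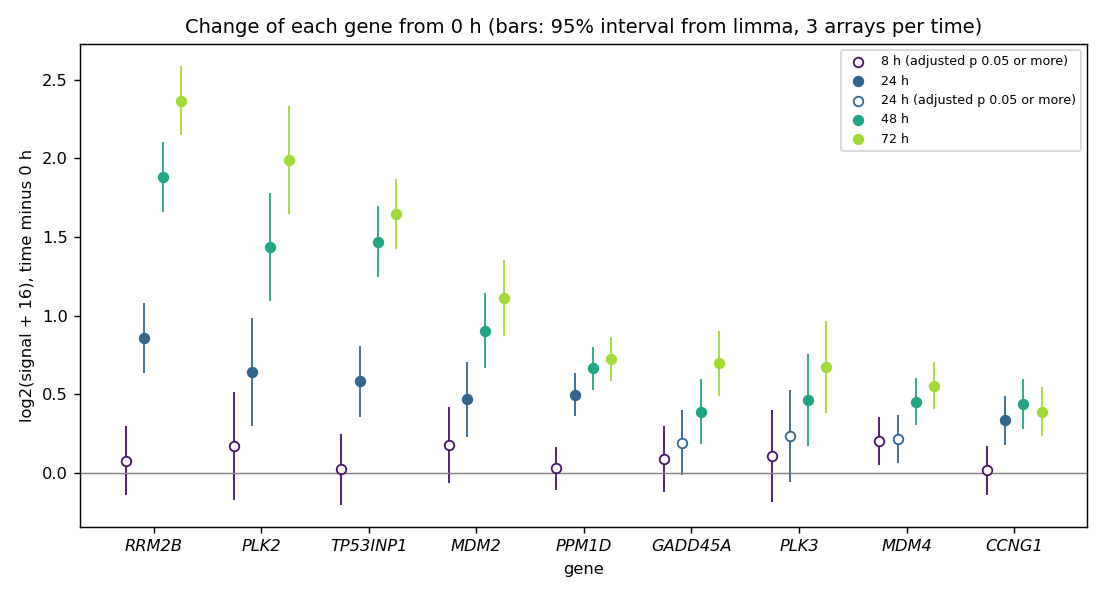
Log2 change from 0 h (vertical axis, log2(signal + 16)) of each gene at 8, 24, 48 and 72 h, with 95% intervals from limma, 3 arrays per time. Open symbols have an adjusted p of 0.05 or more: all 9 genes at 8 h, and GADD45A, PLK3 and MDM4 at 24 h.

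Neighbouring times were also compared, to show when each gene moved. From 8 h to 24 h, 4 of 9 genes rose: RRM2B (0.78 ± 0.10, SE), TP53INP1 (0.56 ± 0.11), PPM1D (0.47 ± 0.07) and CCNG1 (0.32 ± 0.07), with adjusted p from 1.8e-04 to 0.017 and 2.54% of all genes called higher. From 24 h to 48 h, 5 rose: RRM2B (1.02), TP53INP1 (0.89), PLK2 (0.79), MDM2 (0.44) and MDM4 (0.24), with 12.4% of all genes higher. From 48 h to 72 h, RRM2B (0.48, adjusted p = 0.0062) and PLK2 (0.55, 0.037) rose, with 4.54% of all genes higher. RRM2B was thus called in 3 of these steps. PPM1D was at 0.17 (adjusted p = 0.075) from 24 h to 48 h and 0.06 (0.62) from 48 h to 72 h, and CCNG1 at 0.10 (0.34) and -0.05 (0.73). The first of these PPM1D steps was called with quantile normalisation (0.19, adjusted p = 0.029) and without the third 24 h array (0.20, 0.04996). GADD45A was at 0.31 from 48 h to 72 h (adjusted p = 0.057). With the replicate number as a block, which the check of pairing allowed for these 2 times, that step was called (adjusted p = 0.0039), as it was with quantile normalisation (0.32, 0.028) and without the third 48 h array (0.40, 0.020).

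The CCNG1 step from 8 h to 24 h was lost under median centring of the arrays (adjusted p = 0.087) and without the third 24 h array or the second 8 h array (0.082 and 0.0502). The MDM4 step from 24 h to 48 h was lost with the same centring (0.089) and when either of 2 arrays at each time was left out (adjusted p = 0.055 to 0.094), and that of MDM2 without the third 48 h (0.053) or first 24 h array (0.064). The PLK2 step from 48 h to 72 h was lost with the centring (0.084) and without the third 72 h, first 48 h or second 48 h array (0.14 to 0.17).

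Replicate 3 gave the highest of the 3 values at all 5 times for PLK2, GADD45A and PPM1D, which was so for 3.50% of all genes. MDM2 had it highest at 4 of 5 times and the other genes at 2 or 3. The labels do not say what the number stands for. With replicates 1 and 2 alone, a setting added after the data were seen, the 72 h changes were 1.95 for PLK2, 0.66 for GADD45A and 0.70 for PPM1D, and all 9 genes were still called at 48 h and 72 h. At 24 h MDM2 was then at 0.29 (adjusted p = 0.11), MDM4 at 0.26 (adjusted p = 0.030) and PLK2 at 0.60 (adjusted p = 9.97e-04).

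Family relatives did not share one direction. Of 15 measured, 7 rose, 6 fell and 2 did not pass the test at 72 h, and the median change was 0.15. Of all genes, 32.8% rose and 22.7% fell at that time. RRM2B, at 2.37, stood beside a fall of its S-phase counterpart RRM2 (-2.93). RRM1 (-2.16), counted here with the relatives, also fell. It is the large reductase subunit, a partner of both RRM2 and RRM2B rather than a paralogue. RRM2 read 213.0 ± 56.1 (SD, n = 3) at 72 h and 1697.9 ± 194.7 at 0 h, and RRM1 read 405.4 ± 32.1 at 72 h and 1866.2 ± 89.3 at 0 h. PLK1, the kinase of mitotic entry and spindle assembly, and PLK4, that of centriole duplication, fell by 2.67 and 2.38, while PLK2 and PLK3 rose. Neither PLK1 (0.01) nor PLK4 (0.04) nor RRM2 (-0.33) passed the test at 24 h, when RRM2B and PLK2 were called. With median centring PLK1 and PLK4 were below 0 at that time (-0.05 and -0.02).

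CCNG2, a cyclin G relative that FOXO factors induce, rose by 1.07 at 24 h and 1.34 at 72 h, where CCNG1 rose by 0.33 and 0.39. The difference between the genes was not tested. CCNI rose by 0.33. Of the phosphatases related to PPM1D, PPM1G fell by 0.37, while PPM1A (0.15) and PPM1B (0.13) did not pass the test. TP53INP2 rose by 0.63. GADD45G fell by 1.08, against the rise of GADD45A. Among relatives of the unmeasured BTG2, the antiproliferative genes BTG1 (0.94), BTG3 (0.50), TOB2 (0.44) and TOB1 (0.35) rose. Median centring of the arrays lost the TOB1 call (0.23), and PPM1B was called higher with quantile normalisation (0.23).

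**Figure D4:**
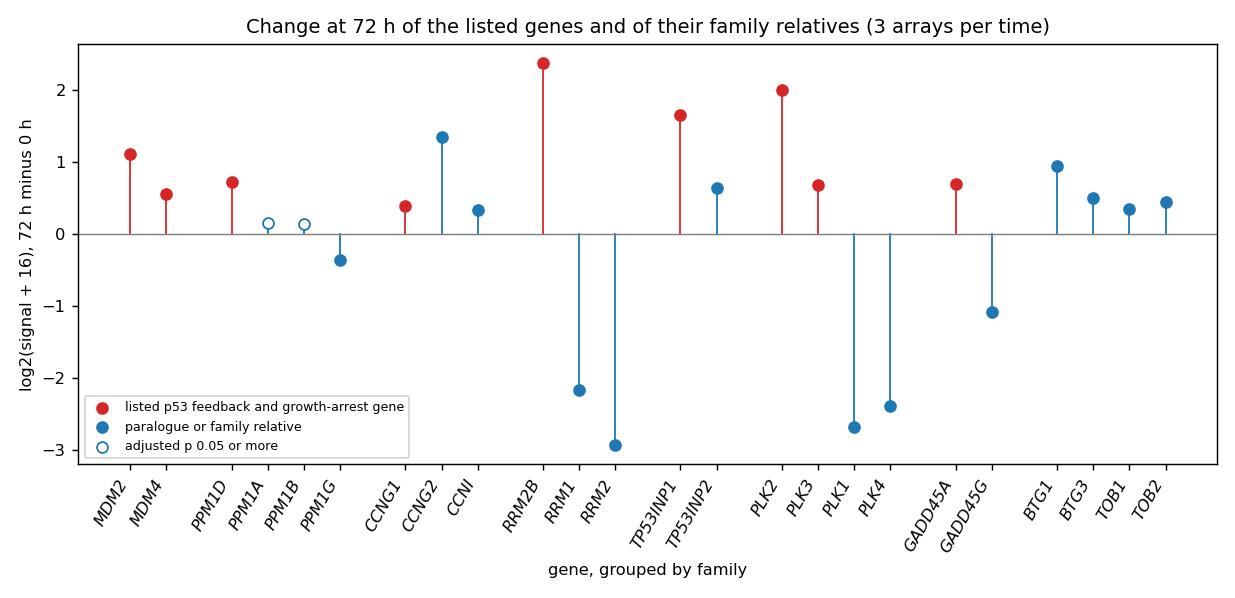
Log2 change (vertical axis, log2(signal + 16)), 72 h minus 0 h, of the listed genes in red and of family relatives in blue, with the partner subunit RRM1 drawn among them. Filled symbols have an adjusted p under 0.05; RRM1, RRM2, PLK1 and PLK4 lie below -2 while RRM2B, PLK2 and PLK3 lie above 0.

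Of 30 other genes that p53 induces, 25 were measured, of which 15 rose by 24 h and 0 fell. Like the 9 genes, this list was chosen with earlier results of these data known. Calls at 48 h were 21 higher with 2 lower, and at 72 h they were 22 higher with 2 lower. Of all genes, 7.74% were higher and 5.72% lower at 24 h, 26.3% and 17.7% at 48 h, and 32.8% and 22.7% at 72 h. The median changes of the 25 were 0.50, 0.86 and 1.05. GDF15, counted as higher at 48 h and 72 h, averaged 7.9 at 0 h and passed the brightness filter through its later arrays. At 8 h limma called 0 (unadjusted p under 0.05 for 3 higher genes and 1 lower gene). The largest rises at 72 h were those of STEAP3 (2.12), a ferrireductase, the sestrin SESN1 (2.11), CYFIP2 (1.99) and CDKN1A (1.88), the CDK inhibitor p21. TP53I11 (-0.79) and PMAIP1 (-0.34), which encodes the death protein NOXA, fell. CDKN1A was at 0.31 at 8 h (adjusted p = 0.24) and rose by 1.27 at 24 h and 1.61 at 48 h. Among the 9 feedback and arrest genes RRM2B had the largest 24 h change, 0.86. The difference from CDKN1A was not tested.

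Among genes that act on p53 the calls went in both directions. At 48 h and 72 h the share higher was near that of all genes (26.3% and 32.8%). The share lower was above that of all genes (17.7% and 22.7%). At 24 h 7.74% of all genes were higher and 5.72% lower. Differences from these shares were not tested. Calls among the 21 measured were 1 higher with 1 lower at 24 h, 5 higher with 6 lower at 48 h and 7 in each direction at 72 h, when the median was 0.02. At 8 h limma called 0 (unadjusted p under 0.05 for 2 higher genes and 1 lower gene). The kinase gene ATM (0.85), the acetyltransferase gene EP300 (0.46), the ubiquitin ligase gene COP1 (0.40) and the ribosomal protein gene RPL11 (0.34) rose most at 72 h. The checkpoint kinase genes CHEK1 (-1.55) and CHEK2 (-1.14) and WRAP53 (-0.68) fell most. The balance depended on scaling: median centring gave 0 higher with 1 lower at 24 h, 1 higher with 7 lower at 48 h and 3 higher with 8 lower at 72 h, and quantile normalisation gave 5 higher with 4 lower at 48 h and 7 with 8 at 72 h. Centring left 72 h without a call for EP300 (0.34, adjusted p = 0.073).

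**Figure D5:**
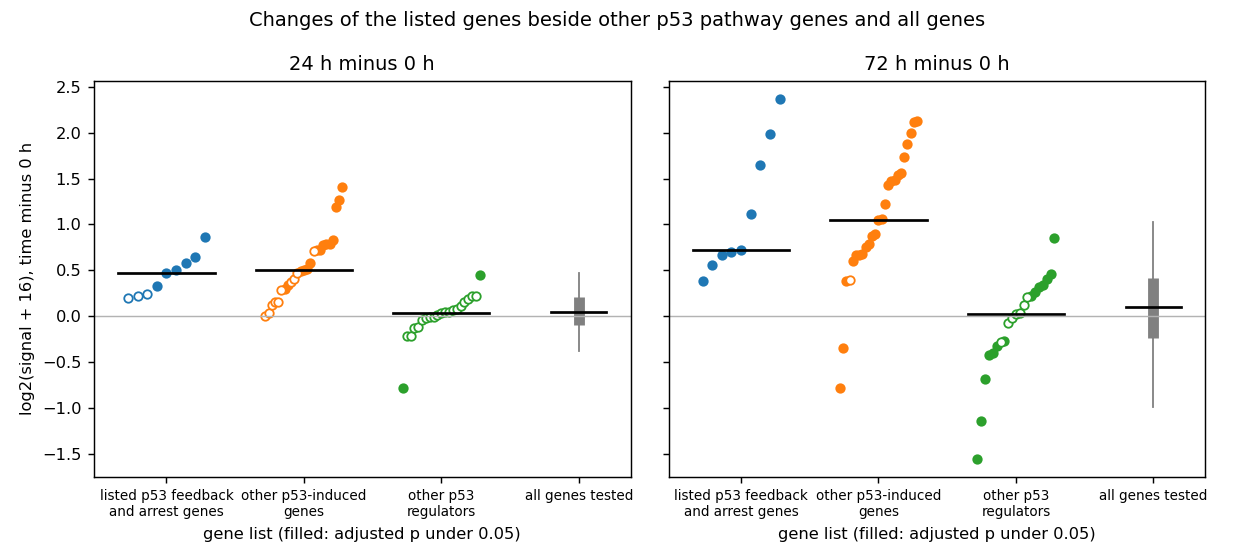
Log2 change from 0 h (vertical axis, log2(signal + 16)) at 24 h and 72 h of the 9 feedback and arrest genes, 25 other p53-induced genes and 21 other p53 regulators, 1 point per gene, filled where the adjusted p is under 0.05, with the list median as a black bar. For all 11774 genes the box spans the 25th to 75th and the line the 5th to 95th percentile. Most points of the first 2 lists lie above the box at 72 h, and those of the regulators spread to both sides of 0.

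Over the 15 arrays, the profile of PPM1D was most like those of SESN1 (Pearson r = 0.99), CDKN1A (0.98) and HBP1 (0.98). CCNG1 was most like PPM1D (0.95), MRS2 (0.94) and CSTF3 (0.94). TP53INP1 was most like UNC13B (0.99), RRM2B (0.99) and TUNAR (0.98), and RRM2B was most like TMOD2, JUP and GPM6A (0.99 each). MDM2 had SLC17A5, KLHL28 and SMKR1 as nearest (0.97, 0.97 and 0.96), and MDM4 had NAT9, HECTD4 and CNR1 (0.97 each). PLK2 was nearest to CPEB1, CSRNP3 and LRRC66 (0.99 each), PLK3 to ZNF581, PGLS and NUMA1 (0.95, 0.95 and 0.94), and GADD45A to ARMCX3, POGLUT1 and PDZRN3 (0.98, 0.97 and 0.97). All points share the time course, so many genes score high: 927 genes exceeded 0.90 with RRM2B and 41 with CCNG1.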

How the data were processed

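Expression on 15 arrays, 3 at each of 5 times, was analysed from the table of MAS5 signal intensity values that the authors deposited, 1 value per probe set and array. The submitters' processing notes name MAS5 and GCOS; versions are not given in the sources used here. The deposited signal intensity had a trimmed mean of 100.01 on every array, so the arrays were already scaled and were not rescaled. Probe sets were named from the platform annotation, with 41091 naming 1 gene, 1801 several, 11721 none and 62 being controls. Values were taken as log2(signal + 16), and probe sets whose mean fell below the median of all non-control probe sets (a signal of about 16.6) were left out, leaving 27307. That mean was over all arrays, so a probe set dim at 0 h could pass through its later arrays. Each gene was represented by its brightest probe set, which gave 11774 genes. They were tested with limma 3.58.1 in R 4.3.3 (lmFit and eBayes over all 5 times, all 15 arrays sharing 1 estimate of spread), with Benjamini-Hochberg adjustment over all genes. The fit was tested on simulated data. The number of arrays limits the precision.

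The members and gene lists were chosen with earlier results of these data known. Besides the members and CDK2, the text names the 4 greatest rises and 3 greatest falls past the threshold in each list at 72 h, every measured relative, CDKN1A at all times, and the 3 genes most correlated with each member. Alternatives were other pseudocounts (1 and 64), other filters, quantile normalisation, median centring, array weights, the mean of a gene's probe sets, a replicate block, a log2 change of 1 in addition, and leaving out each array. Pairing by replicate number was checked from the residuals: same-numbered arrays correlated at over 0.1 in all 3 pairs for 48 h with 0 h (0.12 to 0.21), 72 h with 24 h (0.12 to 0.19) and 72 h with 48 h (0.12 to 0.35), and not for the other 7 pairs of times. Promoter sequences are those of RefSeq on GRCh38.p14.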

Additional observations from a re-analysis of the deposited data

How the results depend on the processing

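Of 680 comparisons of a single gene under an alternative, 655 kept their direction and their side of the threshold, 13 lost the call, 5 gained it and 7 turned direction. All 7 turns were at 8 h, where no gene of the group was called: CCNG1 was at -0.0028 with arrays centred on their medians, MDM2 at -0.0499, MDM4 at -0.0537 and TP53INP1 at -0.2025 with the mean of the gene's probe sets, and TP53INP1 lay between -0.0182 and 0.0881 when single arrays were left out, being below 0 in 3 of these fits (-0.0108, -0.0088 and -0.0182). The one call lost at 72 h was that of MDM4 with the mean of its probe sets. With a log2 change of 1 required in addition, 0, 3 and 4 of the 9 genes were called at 24, 48 and 72 h, and of all genes 2, 70, 575 and 1212 at 8, 24, 48 and 72 h, since fewer genes pass a stricter rule. The 53 genes called at 8 h became 102 with array weights and 88 when replicate 3 was left out at all times, which was tried after seeing the data. The cause was not tested. Leaving out single arrays, and so fitting fewer samples, gave 20 to 47 genes at 8 h and 1006 to 1294 at 24 h, where 1584 were called with all arrays. Among the 9 genes it gave 4 to 6 calls at 24 h, between 8 and 9 after 48 h and 9 by 72 h. For the steps, added after seeing the data, it gave 3 to 4 genes from 8 h to 24 h, 3 to 5 from 24 h to 48 h and 1 to 3 from 48 h to 72 h, and median centring gave 1 for that last step. Centring also moved the split of all genes called: 457 higher and 727 lower at 24 h (911 and 673 uncentred), 2069 and 2556 at 48 h (3093 and 2082), and 2735 and 3250 at 72 h (3861 and 2670). It moved the median of all genes at 72 h from 0.10 to -0.01, so changes of this size have no settled direction. With the replicate number as a block, 0, 8, 9 and 9 of the 9 genes were called at 8, 24, 48 and 72 h. MDM4 and GADD45A were gained at 24 h, and no other call of the 9 against 0 h changed. Of all 11774 genes, 13, 1153, 3345 and 4082 were then called higher at these times. The successive steps gave 5, 7 and 3 of the 9 with the block. That added PLK2 from 8 h to 24 h, PPM1D and GADD45A from 24 h to 48 h, and GADD45A from 48 h to 72 h. The check of pairing did not allow the block for 24 h with 0 h, 24 h with 8 h or 48 h with 24 h. Of the gained calls, only that of GADD45A from 48 h to 72 h was at times the check allowed. Dim probe sets limit PLK3 and the minor probe sets, whose arrays overlap between times.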
